A study of Mus musculus with 3 samples.

Results

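The genes described here encode the subunits of Mediator and of RNA polymerase II (Pol II). They were taken by symbol from a table of 21782 mouse genes: every Med and Polr2 gene that is named by a subunit number or letter, together with Cdk8, Cdk19 and Ccnc, the cyclin-dependent kinases and the cyclin of Mediator. The rule uses symbols and no measured value, although the set was proposed with earlier results of these data known. It gave 46 genes, 33 of Mediator and 13 of Pol II, which lie on 19 chromosomes. Expression was measured by RNA-seq of polyA+ RNA in mouse embryonic fibroblasts (MEFs), isolated at E12.5 and grown in DMEM with 20% FBS. All 3 libraries (R1, R2 and R3, here clones 1, 2 and 3) were from unsynchronised wild-type cells with no treatment, 1 library from each clone. The study used these cells as the normal background in which cohesin and its partners are at work, so the data hold 1 condition and no contrast between conditions. What could be asked is how much RNA of each subunit these cells contain, and which subunits differ between clones.

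Pol II transcribes all protein-coding genes in the nucleus. Mediator is the large complex that stands between transcription factors bound at enhancers and Pol II at the promoter, and cohesin is thought to help bring such distant sites together. The core of Mediator has a head and a middle that contact Pol II, a tail that is bound by activators, and a scaffold, MED14, that joins them. A separable kinase module (CDK8 or CDK19, cyclin C, MED12 and MED13) binds the core and hinders its contact with Pol II. The largest Pol II subunit, RPB1, ends in a long series of heptad repeats (the CTD), whose phosphorylation marks the stages of transcription and which Mediator binds in its unphosphorylated form.

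Total counts were 25261357, 22594316 and 24791198 in clones 1, 2 and 3. Levels are given as counts per 1000000 after TMM scaling (CPM). Levels of different genes are compared only as CPM per kb of transcript, for which the annotated transcript with the longest coding sequence was used. All 8 fibroblast markers examined were expressed, which fits the label of the cells, with summed levels of 92905, 67708 and 70908 CPM in clones 1, 2 and 3. The 6 leukocyte markers were also present, with summed levels of 249, 1104 and 203 CPM in clones 1, 2 and 3, and 6 proliferation markers summed to 368, 723 and 609 CPM. The arrest markers Cdkn1a, Cdkn2a and Cdkn2b summed to 587, 411 and 464 CPM, each of them highest in clone 1. Summed levels of 6 epithelial markers (3.42 to 7.09 CPM) and of 5 endothelial markers (8.01 to 13.4 CPM) were low, and none of these markers was at 0 in all clones. The part of these differences between clones in the values below was not tested, and in such bulk samples fewer cells of a type and less RNA per cell cannot be told apart.

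RNA of nearly the whole set was found. At 1 CPM or more in every clone, 45 of the 46 genes counted as expressed, where 52.2% of all genes in the table did (11367 genes). Together they took 1697 ± 11.8 CPM (SD, n = 3), of which Mediator genes took 944 ± 14.7 CPM and the 12 Pol II subunits 630 ± 8.95 CPM. The exception was Med12l, the paralog of Med12, with 13, 12 and 14 counts in clones 1, 2 and 3. Per kb, 30 of the 46 genes were above the median of expressed genes, 8.49 CPM per kb over 11343 genes with a known length, and 1 was among the highest 10%.

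**Figure D1:**
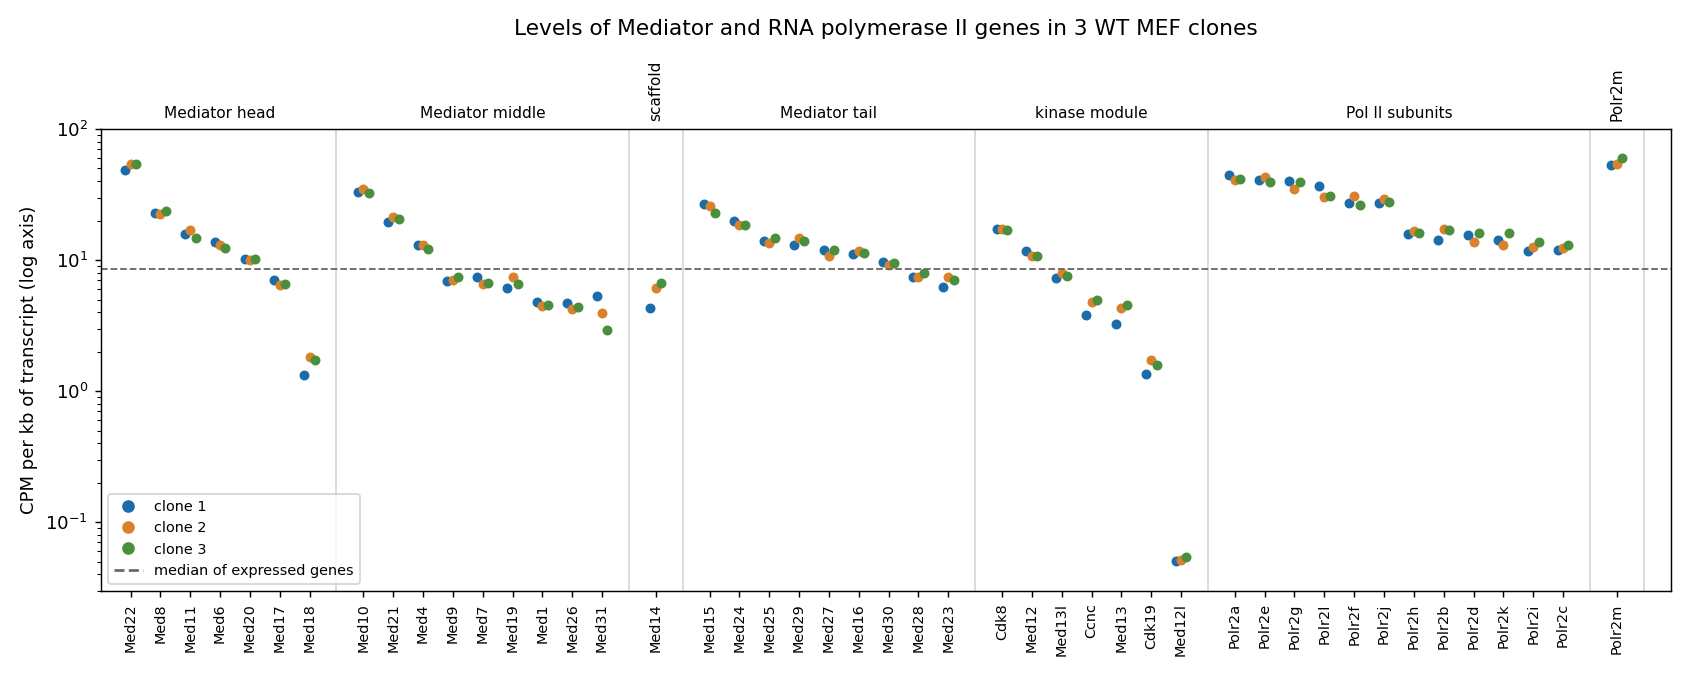
Level of each of the 46 genes in clones 1 to 3 as CPM per kb of transcript (log axis), grouped by module and ordered by mean within it. Each dot is 1 clone, and the dashed line is the median of expressed genes (8.49 CPM per kb). All clones of the 12 Pol II subunits lie above the line, with gene means between 12.5 and 42.5 CPM per kb, whereas means of the kinase module spread from 17.1 for Cdk8 to 0.052 for Med12l.

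Among Pol II genes, Polr2a, which encodes the catalytic subunit RPB1, had the highest level of the 12 subunits. The gene occupies positions 69733997 to 69758637 of chromosome 11 (GRCm38, minus strand), and its transcript has 29 exons. Its counts were 7462, 6250 and 7120 in clones 1, 2 and 3, or 286 ± 12.2 CPM and 42.5 ± 1.82 CPM per kb (SD, n = 3). Clone 1 was highest and clone 2 lowest, and they differed by 1.08-fold. Since these counts are large, that small difference passed a chi-square test, which asks whether the counts of a gene depart from the library sizes by more than counting noise (adjusted p = 9.9e-06, Benjamini-Hochberg over all genes tested), but without clone 1 it was 1.02-fold and did not (adjusted p = 0.504).

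The coding sequence of Polr2a encodes 1970 residues. The CTD is a place where short reads could fail to align, because the same 7 residues recur, so the sequences of its repeats are shown. In the annotated transcript, 21 heptads matched the consensus exactly, between residues 1615 and 1803, all within the last exon. They are written by 20 different 21-base sequences, which differed from each other by a median of 5 bases and at most 8. The first, the tenth and the adjacent sixteenth and seventeenth exact repeats, which are the only identical pair, read as follows in 5′ to 3′ direction (minus strand, GRCm38), with capitals marking the tyrosine codon that opens each heptad.
heptad 1, chr11:69735460-69735480: TACtcccctacttcaccttcc
heptad 10, chr11:69735250-69735270: TATtctccaacttctcccagc
heptad 16, chr11:69735124-69735144: TACtcaccaacttctccaagc
heptad 17, chr11:69735103-69735123: TACtcaccaacttctccaagc
At the read length of 86 nt no stretch of the transcript recurred within it (0.0% of stretches), and none was found in the transcripts of other genes. Up to 2 mismatches were allowed in both searches. The repeats thus left no ambiguous stretch at this length.

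After Polr2a, the highest subunits per kb were Polr2e, a subunit common to the 3 nuclear polymerases, and Polr2g, a subunit of the dissociable stalk. Polr2e had 1168, 1113 and 1136 counts in clones 1, 2 and 3, or 41.0 ± 1.91 CPM per kb (SD, n = 3). Polr2g had 893, 702 and 888 counts, or 38.3 ± 2.90 CPM per kb. The clones of Polr2a and Polr2e overlapped, as did those of Polr2e and Polr2g, so the order of these genes was not resolved.

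At the lower end were Polr2c, which forms the assembly platform of the enzyme, Polr2i and Polr2k. Polr2c had 1159, 1091 and 1267 counts and 12.5 ± 0.453 CPM per kb (SD, n = 3), Polr2i had 237, 233 and 282 counts and 12.6 ± 0.993 CPM per kb, and Polr2k had 212, 176 and 244 counts and 14.4 ± 1.56 CPM per kb. Each of these genes was lowest in clone 1 or 2 and highest in clone 3, and none was called as differing between clones by the chi-square test. With total counts in place of TMM scaling, Polr2c was called. The place of Polr2c rests on the transcript chosen, since per kb of the APPRIS principal transcript (1580 nt instead of 3881 nt, an alternative chosen after seeing the data) it had 30.6 CPM per kb. Of the 734 stretches of 86 nt in Polr2i, 240 are also found in the overlapping gene Tbcb, which is transcribed from the other strand.

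From the highest to the lowest subunit the range was 3.41-fold per kb. Of 11 neighbours in the order of levels, only Polr2j and Polr2h, at 28.1 ± 0.998 and 16.3 ± 0.346 CPM per kb (SD, n = 3), had clones that did not overlap. This step separates 6 genes at 28.1 CPM per kb or more from 6 genes at 16.3 or less. It holds only for the transcripts chosen. With its APPRIS principal transcript Polr2c had 30.6 CPM per kb, and with all annotated exons joined Polr2f had 9.61 and Polr2h 10.2. The 5 subunits shared with polymerases I and III (Polr2e, Polr2f, Polr2h, Polr2k and Polr2l) had a median of 28.1 ± 2.15 CPM per kb, and the 7 found in Pol II alone had 16.6 ± 1.06. This gap depends on the lengths used. With the APPRIS principal transcripts the middle gene of the shared list was Polr2f at 28.2, and that of the other list Polr2j at 28.1. With all annotated exons joined they were Polr2k at 13.9 and Polr2d at 15.0 CPM per kb. Both lists hold genes on either side of the step. Polr2m, which is not part of the core enzyme and encodes the Pol II-binding protein Gdown1, had the highest mean of all 46 genes per kb. It had 2926, 2674 and 3339 counts and 55.8 ± 3.68 CPM per kb. The clones of Polr2m overlapped those of Med22, at 52.5 ± 3.23 CPM per kb, so their order was not resolved. The CPM of Polr2m was 118 and 119 in clones 1 and 2 and 132 in clone 3 (1.12-fold, adjusted p = 5.7e-06, chi-square test with Benjamini-Hochberg adjustment). Without clone 3 the difference was 1.01-fold.

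The median Pol II subunit had 2.36 ± 0.151 times the level of the median Mediator gene per kb (SD, n = 3). It was 22.2 ± 0.962 against 9.41 ± 0.195 CPM per kb. The size of this ratio depends on the lengths used: with the APPRIS principal transcripts it was 3.49 and with no division by length 1.41. Across the 46 genes, the rank correlation of the levels was 0.962 between these 2 choices of transcript and 0.780 when all exons of a gene were joined. Genes are not independent replicates, and these values describe the scales only.

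In Mediator, Med22 of the head was highest. It had 1178, 1188 and 1339 counts in clones 1, 2 and 3, or 52.5 ± 3.23 CPM per kb (SD, n = 3), with clone 1 below the others (1.12-fold). Its level was 14.1 CPM per kb when all its annotated exons (3614 bp, against 973 nt of the transcript) were joined. Med10, a small subunit of the middle, followed with 668, 635 and 668 counts and 33.3 ± 1.09 CPM per kb. Here 78.1% of the 86-nt stretches also match Gm26819, which overlaps Med10 on the opposite strand, so that without a known strand setting the reads of Med10 and Gm26819 cannot be told apart.

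Med15, a subunit of the tail that is bound by activators, was the third with 2267, 1996 and 1971 counts and 25.2 ± 2.05 CPM per kb (SD, n = 3). It had the largest count of all Mediator genes in clones 1, 2 and 3, and clone 3 was the lowest (1.17-fold; adjusted p = 2.4e-06, chi-square test with Benjamini-Hochberg adjustment). Without clone 3 it was 1.03-fold. On the scale of joined exons Med15 had 7.38 CPM per kb.

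At the lower end of Mediator, the genes were Med18 of the head, Cdk19 and Med12l. Med18, which pairs with MED20 in the movable jaw of the head, had 55, 69 and 73 counts, or 1.62 ± 0.267 CPM per kb (SD, n = 3). Its partner Med20 was at 10.2 ± 0.115 CPM per kb. The head ran from this level of Med18 to the 52.5 CPM per kb of Med22, with Med17, its central subunit, at 6.70 and Med8 at 23.1. The middle ran from 4.06 (Med31) to 33.3 (Med10), and the tail from 6.88 (Med23) to 25.2 (Med15). Med1, the subunit of the middle that is contacted by nuclear receptors, had 4.59 ± 0.152 CPM per kb. Of 32 neighbours in the order of Mediator levels, 12 had clones that did not overlap, including each step among Med22, Med10 and Med15. Joined exons lowered the level of 19 of the 46 genes by more than 1.5-fold, so ranks between modules hold only for the scale given.

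The kinase module has paralogs for 3 of its 4 subunits, and their shares differed from pair to pair. The counts of Cdk8 were 1271, 1154 and 1275 in clones 1, 2 and 3, with 50.9 ± 0.397 CPM (SD, n = 3) and 1.01-fold between clones. Cdk19 had 194, 227 and 234 counts, or 9.05 ± 1.14 CPM. Cdk8 thus took 86.8% of the counts of both kinases in clone 1 (95% Wilson interval 84.9 to 88.4), 83.6% in clone 2 (81.5 to 85.4) and 84.5% in clone 3 (82.6 to 86.2). Per kb its share was 91.7% ± 0.977 (SD, n = 3), and with joined exons 77.0%. Cdk8 was the larger in every clone on all these scales, although 33.2% of its stretches also match the pseudogene Gm7107, which is not a row of the table.

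Med12, which activates the kinase, was almost alone in its pair. It had 1995, 1640 and 1861 counts in clones 1, 2 and 3, or 75.6 ± 4.12 CPM (SD, n = 3), against the 13, 12 and 14 counts of Med12l, or 0.537 ± 0.016 CPM. Med12 made up 99.4% of the counts of the pair in clone 1 (95% Wilson interval 98.9 to 99.6), and 99.3% in clone 2 (98.7 to 99.6) and in clone 3 (98.8 to 99.6). Per kb its share was 99.5% ± 0.035. Each library held more Med12l counts than the 3 that a count of 0 leaves possible, but 15.6% of its 86-nt stretches also match Igsf10, which overlaps it on the opposite strand and had 415, 430 and 440 counts.

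Med13 and Med13l, whose products link the module to core Mediator, were present at comparable levels. Med13 had 846, 1024 and 1213 counts in clones 1, 2 and 3, or 42.5 ± 7.43 CPM (SD, n = 3), and Med13l had 1399, 1390 and 1481, or 58.9 ± 2.67 CPM. Med13 took 37.7% of the counts in clone 1 (95% Wilson interval 35.7 to 39.7), 42.4% in clone 2 (40.5 to 44.4) and 45.0% in clone 3 (43.2 to 46.9). Clone 1 lay below the intervals of the other clones. Per kb of transcript the share was 34.6% ± 3.45, but with joined exons, where Med13l has 15427 bp and Med13 10840 bp, it was 50.4%, so which of these paralogs was the larger depends on the length used. The intervals cover counting error only.

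**Figure D2:**
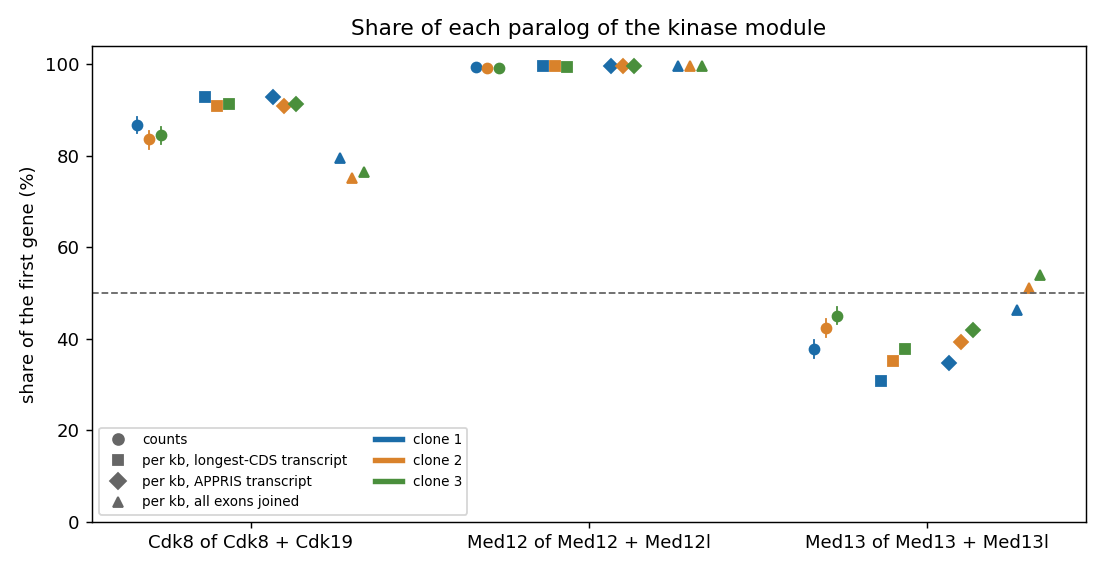
Share of Cdk8, Med12 and Med13 in the sum with their paralog (%, vertical axis) in clones 1 to 3, from counts (circles, with 95% Wilson intervals) and per kb with 3 definitions of length (squares, diamonds and triangles). Cdk8 (77.0% to 91.7%, means of the 4 scales) and Med12 (above 99%) stay above the dashed line at 50%, while Med13 lies at 34.6% to 50.4%.

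Ccnc, the cyclin that both kinases bind, had 319, 365 and 419 counts in clones 1, 2 and 3, or 15.2 ± 2.06 CPM (SD, n = 3). Per kb, Ccnc had 4.52 ± 0.612 CPM per kb, Cdk8 17.1 ± 0.134 and Cdk19 1.56 ± 0.197. RNA of the kinases together therefore exceeded that of the cyclin in each library on this scale.

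Most of these genes were not called as differing between clones. A gene was called different between clones where its 3 counts departed from the scaled library sizes beyond counting noise (chi-square test, Benjamini-Hochberg adjusted p under 0.05, over the 12218 genes that reached 10 counts in each library). All 46 genes could be tested, and 15 of them were called (32.6%), where 62.5% of all genes tested were. Where the highest clone also had to be 1.5 times the lowest or more, 2 were called (4.35%), where 18.6% of all genes tested were. Each clone gave 1 library, so the test compares libraries, and the clone, its culture and its library cannot be told apart.

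The median ratio of the highest to the lowest clone was 1.11 in the 46 genes and 1.24 in all genes tested. It was below 1.2 in 36 of the 46 genes and in 41.8% of genes tested. The median level was 25.7 CPM in the 46 genes and 22.4 CPM in all genes tested. Leaving out any 1 clone, the median ratio of the 46 genes stayed between 1.06 and 1.09 and that of all genes tested between 1.10 and 1.18. Mediator genes had a median ratio of 1.10 and Pol II genes of 1.15.

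**Figure D3:**
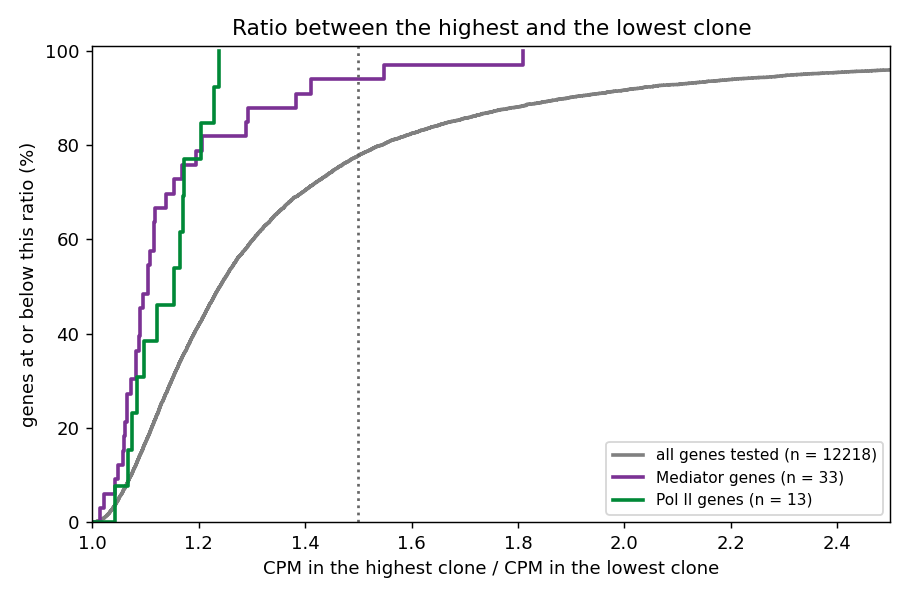
Cumulative share of genes (%) by the ratio of CPM in the highest clone to that in the lowest clone, for 33 Mediator genes, 13 Pol II genes and all 12218 genes tested. The dotted line marks 1.5-fold, which 44 of the 46 genes do not reach, and 4.1% of genes tested lie beyond the right edge at 2.5.

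Med14, the scaffold of Mediator, and Med31 of the middle were the 2 genes past 1.5-fold. The counts of Med14 were 745, 960 and 1172 in clones 1, 2 and 3, or 30.0, 42.6 and 46.4 CPM, a mean of 39.7 ± 8.59 (SD, n = 3). Clone 1 was well below the others, 1.55-fold under clone 3 (adjusted p = 6.6e-20, chi-square test with Benjamini-Hochberg adjustment). Clones 2 and 3 were close, and without clone 1 the ratio was 1.09 (adjusted p = 0.119 by the same test). No 86-nt stretch of Med14 matched another gene.

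Med31, a small and highly conserved subunit, moved the other way. It had 153, 103 and 86 counts in clones 1, 2 and 3, or 6.16, 4.57 and 3.40 CPM, a mean of 4.71 ± 1.38 (SD, n = 3). Clone 1 was the highest and clone 3 the lowest, by 1.81-fold (adjusted p = 0.00011, chi-square test with Benjamini-Hochberg adjustment). Without clone 1 the ratio was 1.34 (adjusted p = 0.111 by the same test). Counts are low for Med31, and 34.4% of its 86-nt stretches also match 4930563E22Rik on the opposite strand, which had 7, 6 and 10 counts.

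The sequences just upstream of these genes are shown because they are the pair that differed most between clones. They come from the RefSeq promoter table (GRCm38.p6), are cut where an exon of a protein-coding gene begins, and are written 5′ to 3′ on the strand of the gene, with capitals marking CpG.
Med14, chrX:12762074-12762223 (minus strand): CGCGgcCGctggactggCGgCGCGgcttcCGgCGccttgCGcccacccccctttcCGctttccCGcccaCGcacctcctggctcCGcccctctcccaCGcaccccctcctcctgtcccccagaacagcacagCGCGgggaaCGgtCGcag
Med31, chr11:72215593-72215842 (minus strand): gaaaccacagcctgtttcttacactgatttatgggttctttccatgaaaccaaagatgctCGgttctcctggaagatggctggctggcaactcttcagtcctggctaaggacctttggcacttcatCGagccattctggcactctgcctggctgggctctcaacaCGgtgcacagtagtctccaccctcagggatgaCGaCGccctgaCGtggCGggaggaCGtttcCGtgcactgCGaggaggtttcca
The Med14 sequence has 18 CpG in 150 bases and the Med31 sequence 10 CpG in 250 bases. In the full 300-base windows (250 bases before and 50 after the RefSeq start), the counts were 34 and 13, with 27 for Med12 and 30 for Med12l. Med12l, the lowest of all these genes per kb (0.052 CPM per kb), thus had no fewer CpG than Med12 (11.1 CPM per kb). All 250 bases before the Med12l start, however, lie in annotated exons of protein-coding genes. The RefSeq start of Med12 is 169 bases from that of the transcript used for lengths.

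Windows were found for 38 of the 46 genes, and their median was 23 CpG, against 22 in expressed genes (n = 8700) and 2 in genes without a count in any clone (n = 3761). The first 20 bases of the transcript used for lengths stood in 26 of the 38 windows, so the RefSeq start can differ from that transcript's start. Short motifs were searched on both strands of the windows. The GC box (GGGCGG) stood in 71.1% of the 38 windows and in 68.2% of those of expressed genes, the ETS core (CCGGAA) in 19 of the 38 and in 29.9%, the YY1 core (ATGGCG) in 21.1% and 16.4%, CCAAT in 36.8% and 38.6%, and TATAAA in 10.5% and 6.75%. Med14 held GGGCGG and CCGGAA, and Med31 held none of these motifs. The NRF1 motif (GCGCATGCG) stood in 10.5% and 4.07%, and in neither of these genes. Such matches are letters in a window and were not tested as binding sites.

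In the 13 called genes other than Med14 and Med31, ratios ran from 1.08 for Polr2a to 1.41 for Med13. Counted by module over all 15 called genes, these were 4 of 7 in the kinase module (Med12, Med13, Ccnc and Cdk19), the scaffold Med14, 1 of 7 in the head (Med22), 1 of 9 in the middle (Med31), 2 of 9 in the tail (Med15 and Med23) and 6 of 13 in Pol II (Polr2a, Polr2b, Polr2f, Polr2g, Polr2l and Polr2m), beside 62.5% of all genes tested. The call of Cdk19 was at the threshold (adjusted p = 0.049, chi-square test with Benjamini-Hochberg adjustment) and was lost with DESeq2 size factors (adjusted p = 0.052), and that of Med12 (adjusted p = 0.0082) was lost with total counts in place of TMM scaling (adjusted p = 0.057). Clone 1 was the lowest in 8 of the 15 called genes and the highest in 6. Over all 46 genes it was the lowest in 21 (45.7%), where it was the lowest in 39.4% of genes tested. Clone 1 was the highest in 15 of the 46 (32.6%), where it was the highest in 37.6% of genes tested.

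Med13, Ccnc and Cdk19 of the kinase module were all lowest in clone 1. Relative to the mean of the clones, on the scale of log2(CPM + 1), Med13 was at -0.30 in clone 1, Ccnc at -0.22 and Cdk19 at -0.18. Over the 6 expressed genes of the module the median deviations were -0.12, 0.080 and 0.016 in clones 1, 2 and 3, which span 0.20, beside a span of 0.014 over all genes tested. Some lists of similar size had spans as large. These were 0.22 for 8 genes of Pol II assembly (-0.10 in clone 1) and 0.21 for 9 genes of CTD phosphatases and CTD-binding proteins (-0.11 in clone 1). Other modules of Mediator had smaller spans, 0.0095 for 7 genes of the head, 0.052 for 9 of the middle and 0.032 for 9 of the tail. Cdk8 (span 0.019) and Med12, which was highest in clone 1, did not share the direction, and the span came to 0.00047 without clone 1. For Mediator as a whole the span was 0.027 and for Pol II 0.073. The summed proliferation markers were lowest and the summed arrest and fibroblast markers highest in clone 1, and their part in these values was not tested. Of the 8 fibroblast markers, 5 were highest in clone 1 and 3 (Vim, Pdgfra and Thy1) in clone 2.

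Polr2b, the second-largest subunit, which forms the active centre together with RPB1, had 1459, 1627 and 1787 counts in clones 1, 2 and 3. It was lowest in clone 1 (1.23-fold; adjusted p = 1.1e-08, chi-square test with Benjamini-Hochberg adjustment). Polr2l, a small subunit shared by the nuclear polymerases, was higher in clone 1, with 1506, 1135 and 1287 counts (1.2-fold; adjusted p = 1e-06, the same test). Polr2a and Polr2b, whose products occur once each in the enzyme, thus had RNA levels with opposite deviations in clone 1. Without clone 1, neither Polr2b (1.02-fold) nor Polr2l (1.01-fold) was called by this test.

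**Figure D4:**
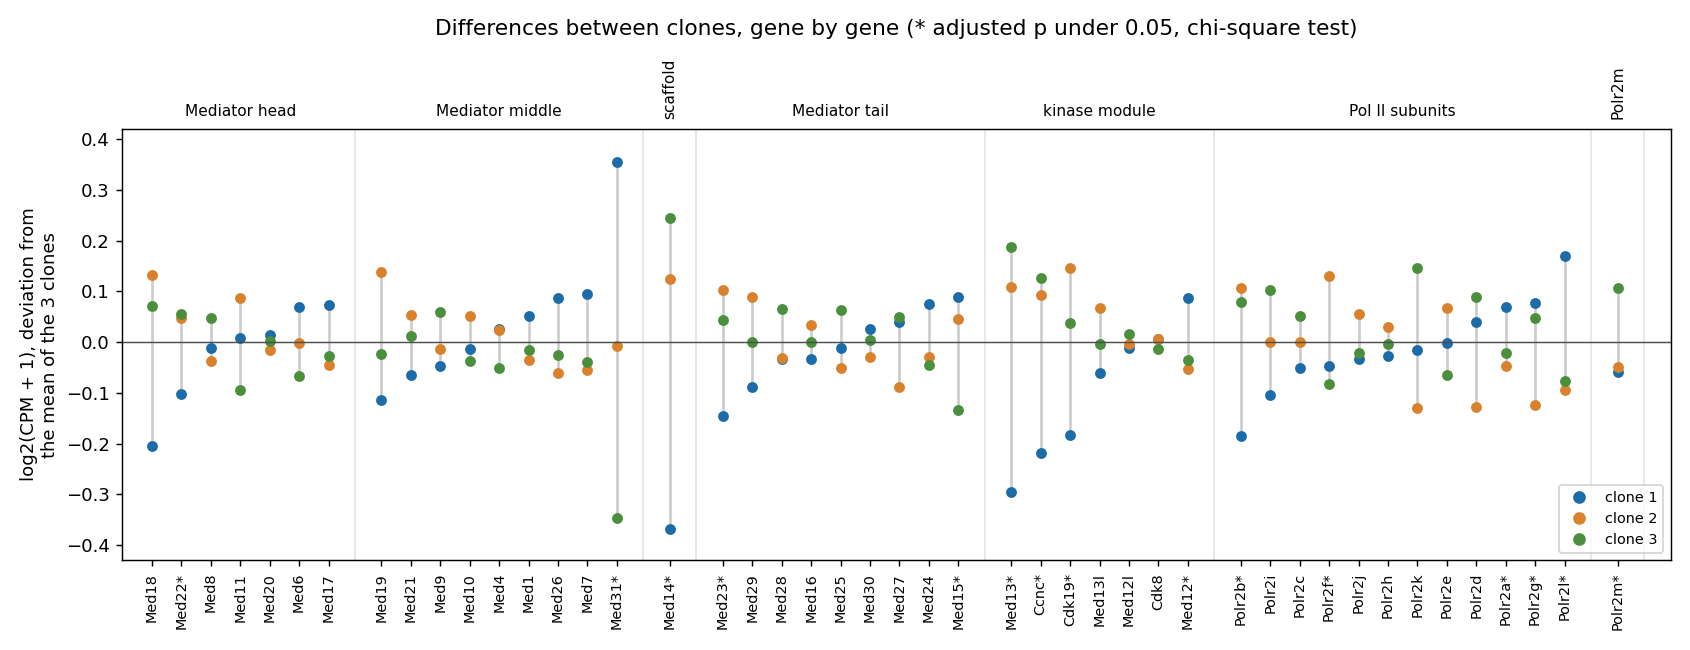
Deviation of each clone from the mean of the 3 clones in log2(CPM + 1) for the 46 genes, by module, ordered within it by the value of clone 1. Asterisks mark the 15 genes called by the chi-square test. Med14 (-0.37) and Med13 (-0.30) have the lowest values of clone 1 and Med31 (0.35) the highest, and 38 genes had every clone within 0.15 of the mean.

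Most of these calls rested on clone 1. Without it 3 of the 46 genes were called (Med15, Polr2f and Polr2m), where 31.7% of all genes tested were, and none reached 1.5-fold with a call, where 7.43% did. Without clone 2, 13 of them were called (45.3% of all genes tested), 2 of these with 1.5-fold (7.77%). Without clone 3, 14 were called (53.0% of all genes tested) and none with 1.5-fold (15.6%), so both clones 1 and 3 are needed for the calls of Med14 and Med31 at that size.

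Transcript length and GC content moved with the difference between clones 3 and 1 in all genes. Across the 46 genes Spearman's rho of this difference was 0.151 with transcript length and -0.30 with GC content, close to the values of 0.168 and -0.29 over 12190 genes tested. The points share 2 libraries and are given as a description. After a trend on length and GC content had been removed, the range between clones was smaller in 18 of the 46 genes and larger in 28, and its median was 0.16 instead of 0.14 (log2 scale). Of the 15 called genes, it was smaller in 8 and larger in 7. It was 0.48 instead of 0.61 for Med14, 0.64 instead of 0.70 for Med31, 0.28 instead of 0.48 for Med13 and 0.17 instead of 0.35 for Ccnc. It rose to 0.26 from 0.16 for Med22, to 0.30 from 0.26 for Polr2l, to 0.24 from 0.20 for Polr2g and to 0.21 from 0.17 for Polr2m.

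Neighbouring parts of the machinery were measured in the same libraries, and all of these genes were expressed. Of 19 subunits particular to polymerases I and III, 7 were called between clones, and only Polr3g was past 1.5-fold, with 97, 118 and 159 counts (1.61-fold; adjusted p = 0.0020, chi-square test with Benjamini-Hochberg adjustment). Polr3g was the lowest of them at 1.68 ± 0.392 CPM per kb, and Polr1d, shared by both enzymes, the highest at 72.4 ± 1.24 (SD, n = 3). Of 18 general transcription factor genes, 6 were called, and their levels ran from 1.0 ± 0.059 for Tbp, the TATA-binding protein, to 42.1 ± 2.34 CPM per kb for Gtf2f1, a subunit of TFIIF. Of 15 TAF genes, which encode the other subunits of TFIID, 5 were called, with levels from 0.852 ± 0.128 for Taf4b to 25.1 ± 1.87 CPM per kb for Taf9. Over all genes tested, 62.5% were called, and 18.6% with 1.5-fold.

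Genes that act on Pol II outside the promoter were also expressed. Of 8 genes for assembly and import of Pol II, 4 were called, with levels from 5.42 ± 0.309 for Rpap2 to 27.1 ± 3.34 CPM per kb for Ruvbl2, a helicase-like chaperone (SD, n = 3). Of 9 genes for phosphatases of the CTD and proteins that bind it, 8 were called, from 3.43 ± 0.663 for Ctdspl2 to 36.0 ± 1.63 CPM per kb for Ctdsp2. None of these genes was called with 1.5-fold. These calls stand beside 62.5% of all genes tested (18.6% with 1.5-fold), and no difference between the lists was tested.

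Reads of some of these genes may have been split with other genes. Of the 46 genes, 15 shared at least 10% of their 86-nt stretches with another annotated gene within 2 mismatches, and 18 shared none. The largest shares were those of Med10 (78.1%), Med31 (34.4%), Med4 (33.5%, with a pseudogene), Polr2i (33.2%), Cdk8 (33.2%) and Polr2h (32.0%). How the authors' counting divided such reads is not given in the sources used here, so the levels of these genes are uncertain to that extent.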

How the data were processed

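The authors deposited a table of raw counts by gene, with a column for each of the 3 clones. As the methods and labels describe, 86-nt single-end reads were aligned with TopHat2 2.0.0 (which used SAMtools 0.1.16 and Bowtie 0.12.7) and assigned to genes with HTSeq. The methods name the build mm10 (GRCm38), and the submitters' processing notes name mm9; the annotation and strand setting are not given in the sources used here. No column was pooled.

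CPM were computed with TMM scaling (edgeR 4.0.16, R 4.3.3). At these depths a count of 0 allows up to 3 counts, or 0.119 to 0.133 CPM. Groups and library sizes came from the labels and the counts. Deviations used log2(CPM + 1). Clones were compared by a Pearson chi-square test (2 degrees of freedom) of the counts against scaled library sizes, since 1 condition leaves edgeR no contrast. Lengths, exons and stretches came from GENCODE M21 (21117 genes matched by symbol, 597 by synonym, 68 not matched). The chi-square procedure was tried on simulated counts with counting noise and set changes, but no other spread between clones. Such counts cannot show how the test behaves where clones also differ in other ways.

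Values in every clone were set to be given for Polr2a, the 3 highest and 3 lowest genes per kb of Mediator and of the Pol II subunits, the paralog pairs, Med14 and genes called with 1.5-fold; Ccnc, Polr2b, Polr2l, Polr2m, Igsf10 and 4930563E22Rik were added after their values were seen. The members and lists were chosen with earlier results of these data known. Alternatives were DESeq2 1.42.0 size factors, total counts, other thresholds and lengths, a pseudocount of 0.25 and leaving out each clone. Python 3.11.15, pandas 2.3.3 and scipy 1.17.1 were used. ChIP-seq and imaging were not analysed here.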

Additional observations from a re-analysis of the deposited data

How the results depend on the processing

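The number of Mediator and Pol II genes called between clones was 3 to 14 when 1 clone was left out, against 15 with all clones, and the number called with 1.5-fold was 0 to 2, against 2. Without clone 1 it was 0, and without clone 3 also 0. Shares over all genes tested fell as well. With 1 clone left out 31.7% to 53.0% of them were called, against 62.5% with all clones. With 1.5-fold the share was 7.43% to 15.6%, against 18.6%. With DESeq2 size factors, total counts or another threshold on counts, both numbers of Mediator and Pol II genes stayed within 1.5 times the value reported. Single calls ended there: Cdk19 with DESeq2 size factors (adjusted p = 0.052) or a filter of 1 count (0.062), and Med12 with total counts (0.057). Other calls were gained, those of Med13l, Med25 and Polr2c with total counts. Med24 was gained without clone 2, and Med13l and Med19 without clone 3. The span of the Mediator genes was 0.060 with total counts and 0.0014 to 0.023 with 1 clone left out, that of the Pol II genes 0.122 and 0.024 to 0.052, and that of the kinase module 0.00047 to 0.22 with 1 clone left out. Lengths changed the shares and levels most. With all exons joined, the share of Cdk8 was 77.0%, that of Med12 99.6% and that of Med13 50.4%, which turns its order with Med13l, and with no division by length they were 84.9%, 99.3% and 41.7%. The APPRIS principal transcripts, chosen after seeing the data, gave 38.7% for Med13. The range over the Pol II subunits was 4.75-fold with joined exons and 33.1-fold with no length, and the ratio of Pol II to Mediator was 2.53 and 1.41, and 3.49 with APPRIS transcripts. Apart from leaving out a clone, these changes came with the length, the scaling or the count filter entered. No paired analysis was possible because the libraries are of 1 condition.

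Depth limits what can be said of Med12l (12 to 14 counts), Med18 and Med31, whose counts are small. With 1 library per clone, the spread between clones holds the clone, its culture and its library together.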
